A study of Mus musculus with 4 samples.

Results

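The proteasome subunit genes were described in ribosome-bound RNA from the rostral pons of the mouse. Gene symbols made of Psma, Psmb, Psmc, Psmd or Psme and a number were taken as members, and 43 of the 31735 gene rows shared by the 4 deposited tables met that rule. All 4 libraries belonged to 1 group, immunopurified (IP) RNA of untreated control mice of the line Cbln2-TRAP NIDA172, which carries EGFP fused to ribosomal protein L10a (Rpl10a). In translating ribosome affinity purification (TRAP), antibodies to EGFP pull down tagged polysomes with the RNA they carry. The name of the line points to Cbln2 as the driver of the tag. The labels give neither the age nor the sex of the mice, nor whether replicates were separate animals or pools, so the spread behind every p-value is that of the libraries and may be technical. No unpurified RNA was analysed here. In bulk RNA, fewer cells of a type and less RNA per cell cannot be told apart.

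Replicates 3 and 4 carry the library numbers 2469 and 2470 in the descriptions, and replicates 1 and 2 carry 1666 and 1667. These are called the second and the first library pair. No label names a batch, but the tables of each pair list partly different gene rows. The description of replicate 4 repeats the replicate label of replicate 3, and the title was followed. Libraries held 12731825 to 21140265 counts in gene rows. Levels are in CPM, counts per 1000000 counts in gene rows of a library. The row Rn45s, named for the ribosomal RNA precursor, took 1.61% to 24.2% of these counts and lowers the CPM of the other genes by as much. Cbln2 was at 239, 110, 126 and 65.7 CPM in replicates 1 to 4, and Rpl10a, whose coding sequence the tag shares, at 101, 134, 225 and 152 CPM. All 10 general neuronal markers reached 1 CPM in all 4 libraries, with a summed level of 12298 to 26114 CPM. Of 12 microglia markers 2 did so, and of 12 endothelial markers 9. So did 7 of 8 astrocyte, 6 of 8 oligodendrocyte and 8 of 8 granule cell markers.

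The proteasome is the protease that degrades ubiquitin-tagged proteins. Its 20S core is a barrel of outer alpha rings, which gate the entrance, and inner beta rings, which hold the active sites. The 19S regulatory particle caps the core. Its base holds a ring of ATPases that unfold the substrate, and its lid removes the ubiquitin chain. In cells exposed to interferon, the immunoproteasome replaces the constitutive catalytic subunits Psmb5, Psmb6 and Psmb7 with Psmb8, Psmb9 and Psmb10, and its peptides feed antigen presentation. The activators Psme1 to Psme4 open the core without ATP. Neurons depend on the constitutive proteasome for protein turnover at synapses.

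Promoter sequences from RefSeq (GRCm38.p6) were found for 36 of the 43 members, in 39 windows of the 250 bases before an annotated start. Known regulators of these genes bind short motifs, which were searched on both strands. NFE2L1, which drives proteasome genes when proteasome activity is low, binds antioxidant response elements, and gamma-activated sequences are elements of genes that respond to interferon gamma. The antioxidant response element core TGACNNNGC was present in 5 of 39 member windows (12.8%), among them those of Psmb5 and Psmb6, beside 10.2% of 32851 windows of all genes. The gamma-activated sequence TTCNNNGAA was present in 1 member window (2.56%), that of Psmb8, beside 7.02% of all windows. The ETS site CCGGAAG, named for the factor family that binds it, was in 12 member windows (30.8%) beside 6.91% of all windows, and the GC box GGGCGG in 22 (56.4%) beside 32.7%. The CCAAT box was in 14 member windows (35.9%) beside 33.8% of all, and the interferon-stimulated response element core in 3 (7.69%) beside 2.98%. These motifs can overlap one another, a match is only a run of letters, and a window without one says nothing about the factor. Stretches are shown for catalytic subunits of the constitutive and the inducible kind and for 3 members with an ETS site, with matches to the motif named on each line in capitals.
Psmb5, chr14:54618023-54618122, minus strand, antioxidant response element core: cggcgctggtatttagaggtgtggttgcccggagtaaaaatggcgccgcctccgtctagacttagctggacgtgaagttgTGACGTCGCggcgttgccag
Psmb6, chr11:70525257-70525356, plus strand, antioxidant response element core: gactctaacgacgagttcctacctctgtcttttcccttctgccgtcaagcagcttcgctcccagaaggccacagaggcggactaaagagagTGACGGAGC
Psmb8, chr17:34198088-34198117, plus strand, gamma-activated sequence: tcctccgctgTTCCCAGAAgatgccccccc
Psmb10, chr8:105938445-105938544, minus strand, no motif marked: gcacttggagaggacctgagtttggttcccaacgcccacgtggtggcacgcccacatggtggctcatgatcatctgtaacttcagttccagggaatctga
Psmd2, chr16:20651552-20651651, plus strand, ETS site on the opposite strand: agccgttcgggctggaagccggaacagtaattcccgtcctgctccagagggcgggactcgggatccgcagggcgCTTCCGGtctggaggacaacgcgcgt
Psmd11, chr11:80428515-80428614, plus strand, ETS site on the opposite strand: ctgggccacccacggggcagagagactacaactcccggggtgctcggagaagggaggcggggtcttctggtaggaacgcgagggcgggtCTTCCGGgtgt
Psme3, chr11:101316093-101316192, plus strand, ETS site: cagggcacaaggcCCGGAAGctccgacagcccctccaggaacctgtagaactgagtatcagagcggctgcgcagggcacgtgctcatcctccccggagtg

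Every constitutive 20S gene and every 19S gene among the members was detected. Of the 43 members, 39 reached 1 CPM in all 4 libraries (90.7%), beside 33.5% of all shared gene rows, and 35 reached 10 CPM (81.4%), beside 20.3%. A library without a single count was seen for 3 members, Psma8, Psmb9 and Psmb11, beside 59.0% of all rows. The 4 members below 1 CPM in at least 1 library were the inducible subunits Psmb8 and Psmb9, the germ-cell subunit Psma8 and the thymus subunit Psmb11. Together the members took 0.302%, 0.236%, 0.252% and 0.246% of the gene counts in replicates 1 to 4, or 3015, 2359, 2521 and 2460 CPM. Replicate 1 was highest on this scale. With Rn45s left out of the totals the sums were 3067, 2398, 3328 and 2711 CPM, and replicate 3 was highest.

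Levels of different genes were put on 1 scale by dividing CPM by exon length in kilobases (union of all annotated exons). Because that union can exceed the transcripts in use, values per kb of the principal transcript are given beside it. Per kb of union exon, 36 of the 39 detected members lay above the median of the 10147 detected genes with a length, and their median stood at the 79.5th percentile. Psmd9, Psmd13 and Psme4 lay below that median. By CPM with no division by length, 32 of the 39 lay above the median of all detected genes. The median of the members then stood at the 65.3rd percentile.

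**Figure D1:**
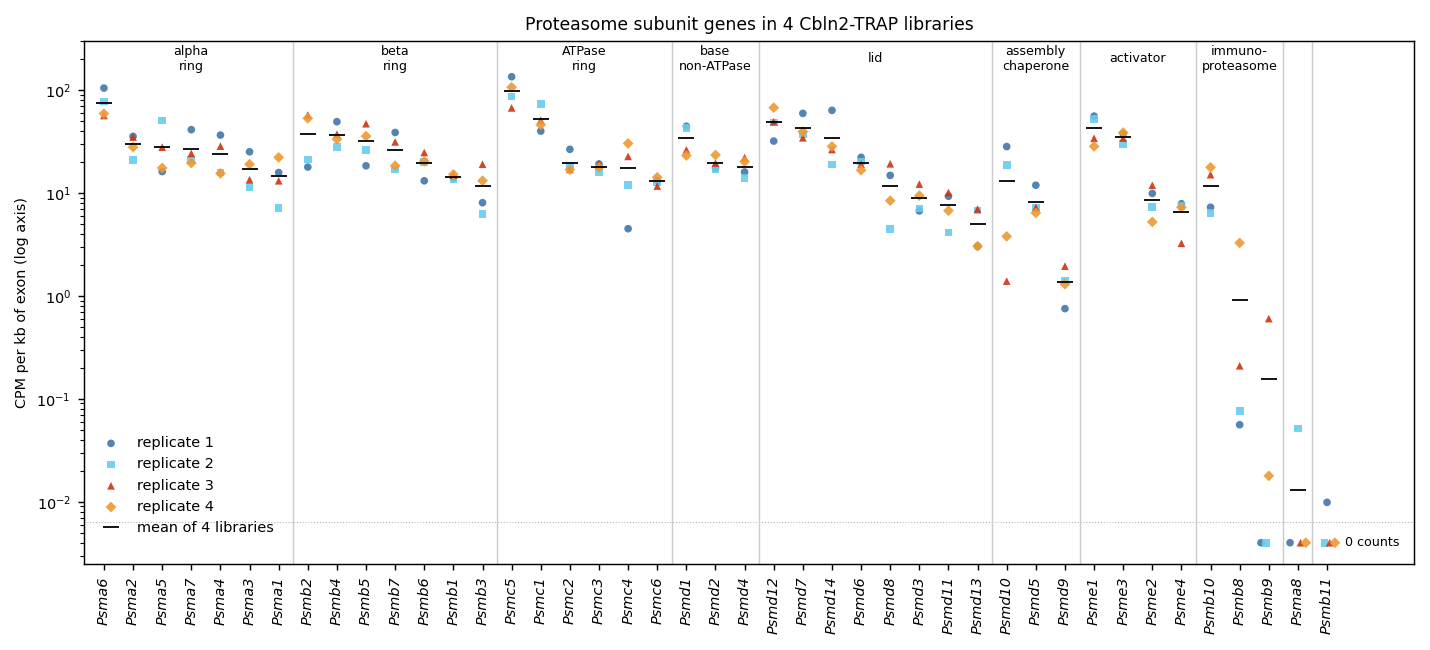
Level of each of the 43 proteasome subunit genes in each of the 4 libraries, in CPM per kb of union exon on a log axis, grouped by place in the complex. Points are libraries, bars are means of 4 libraries, and points under the dotted line stand for 0 counts. The alpha, beta and ATPase rings have means of 11.6 to 98.3 CPM per kb, while Psmb8, Psmb9, Psma8 and Psmb11 fall far below.

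All 7 constitutive alpha genes were present, within a 5.10-fold range of mean CPM per kb. Psma6 had levels of 128, 94.9, 69.5 and 72.6 CPM across replicates 1 to 4 and the highest mean of the ring per kb of union exon, 74.0 ± 22.0 CPM per kb (SD, n = 4). Psma1 had the lowest, 14.5 ± 6.18 CPM per kb, with 46.5, 21.1, 38.6 and 65.2 CPM. The order depended on the length used. Per kb of the principal transcript Psma7 was highest at 88.7 CPM per kb, beside 87.7 for Psma6, and Psma3 was lowest at 23.6. Psma5 varied most between libraries, with 21.2, 66.3, 36.7 and 23.0 CPM in replicates 1 to 4, replicate 2 being the highest. Of its transcript 50-mers 55.4% also occur in transcripts of other genes, so its counts are uncertain. Psma8, which replaces Psma7 in the proteasome of male germ cells, had 2 counts in replicate 2 and 0 in the others, against 2665, 997, 944 and 917 counts for Psma7 in replicates 1 to 4. A count of 0 allows 0.142 to 0.236 CPM. Over the 4 libraries the ratio of Psma8 to Psma7 per kb was 0.000446 (95% exact interval 5.4e-05 to 0.00161, counting error only).

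The beta ring was present as well, and its 7 constitutive genes spanned a 3.21-fold range per kb. Psmb2, a structural subunit, was highest per kb of union exon at 37.2 ± 20.6 CPM per kb, and Psmb3, also structural, lowest at 11.6 ± 5.72 (SD, n = 4). Per kb of the principal transcript Psmb7 was highest at 77.4 and Psmb5 lowest at 31.7. Psmb2 was at 68.5 and 63.8 CPM in replicates 3 and 4, against 21.4 and 25.4 CPM in replicates 1 and 2. Psmb3 was at 43.6 and 30.2 CPM in replicates 3 and 4, against 18.4 and 14.3 CPM in replicates 1 and 2. In both genes the library pairs did not overlap. By CPM, Psmb1 was the steadiest of the detected members, at 64.3, 61.7, 68.3 and 69.5 CPM in replicates 1 to 4. These CPM have Rn45s in the totals, whose share differed between libraries, and the place of Psmb1 depends on that scaling. Shared sequence limits some of these values, since 55.8% of the transcript 50-mers of Psmb3, 54.1% of those of Psmb5 and 28.1% of those of Psmb7 occur in other genes' transcripts. For Psmb7 the only such gene was Nek6, whose exons overlap those of Psmb7 over 11.8% of their length.

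The constitutive catalytic genes were detected in every library. Psmb5, the chymotrypsin-like subunit, was at 16.5, 23.4, 42.2 and 31.9 CPM in replicates 1 to 4. Psmb6, the caspase-like subunit, was at 24.5, 37.5, 46.1 and 37.9 CPM. Psmb7, the trypsin-like subunit, was at 132, 57.5, 107 and 62.7 CPM. The first of these was lowest in replicate 1, as was the second, whereas Psmb7 was highest there by CPM with Rn45s in the totals. That place of Psmb7 depends on this scaling.

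The inducible counterparts were uneven. Psmb10, which replaces Psmb7, was detected in every library at 12.3, 10.9, 25.6 and 30.2 CPM in replicates 1 to 4, higher in replicates 3 and 4 than in 1 and 2. Psmb8, which replaces Psmb5, had 4, 4, 9 and 169 counts, or 0.189, 0.257, 0.707 and 11.03 CPM, so that replicate 4 held 169 of its 186 counts. Psmb9, which replaces Psmb6, had 0, 0, 28 and 1 counts, nearly all in replicate 3. The thymus subunit Psmb11 had 1 count in replicate 1 and none elsewhere. Thus Psmb8 and Psmb9 were highest in different libraries. Both lie on chromosome 17. Exons of Psmb9 overlap those of its neighbour Tap1 over 5.79% of their length, and exons of Psmb8 overlap those of Gm20496 over 14.7%. The counting options were not given, so reads there could not be assigned.

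Per kb, the log2 ratio of Psmb8 to Psmb5 (values with 0.5 CPM per kb added) had a mean of -4.98 ± 1.22 (SD, n = 4). That of Psmb9 to Psmb6 was -4.99 ± 0.42 and that of Psmb10 to Psmb7 was -1.19 ± 0.94. In replicate 4 the ratio of Psmb10 to Psmb7 was -0.05. All 3 ratios were below 0 in 4 of 4 libraries. The added value sets the size of the Psmb8 and Psmb9 ratios, since Psmb8 lay below it in replicates 1 to 3 and Psmb9 in replicates 1, 2 and 4. With 0.1 added the Psmb8 and Psmb9 means were -6.19 and -6.82, and with 1 added -4.31 and -4.15. Of the sum of Psmb8 and Psmb5 per kb, with nothing added, Psmb8 made up 0.305%, 0.291%, 0.444% and 8.42% in replicates 1 to 4. In counts over the 4 libraries Psmb8 stood at 0.0285 of Psmb5 per kb (95% exact interval 0.0243 to 0.0331, counting error only), with most of its counts from replicate 4. Likewise Psmb9 stood at 0.00654 of Psmb6 per kb (95% exact interval 0.00437 to 0.00941, counting error only). Per kb of the principal transcript the mean log2 ratios were -4.56, -5.94 and -2.36 for Psmb8, Psmb9 and Psmb10. Flipping the signs of the 4 libraries in an exact two-sided permutation test gives at best p = 0.125, which all 3 ratios had (adjusted p = 0.143 over 8 gene pairs). Psmb10 made up 15.8%, 27.5%, 32.5% and 49.1% of the sum of Psmb10 and Psmb7 per kb in replicates 1 to 4, or 7.65%, 14.3%, 17.5% and 29.8% per kb of the principal transcript.

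**Figure D2:**
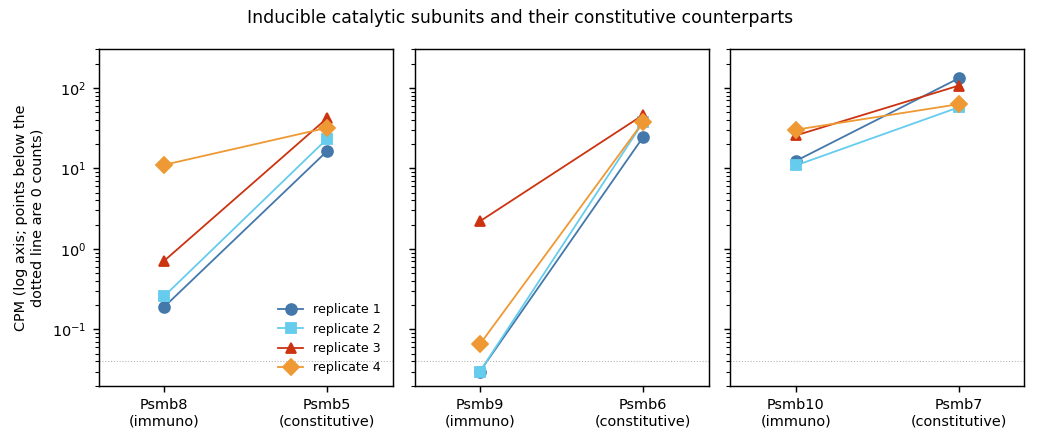
CPM on a log axis for each inducible catalytic gene (left) and its constitutive counterpart (right) in each panel, with 1 line per library. Psmb8 lies above 1 CPM in replicate 4 alone and Psmb9 in replicate 3 alone, while Psmb10 lies between 10.9 and 30.2 CPM in the 4 libraries.

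Markers of cell types and pathways linked to the immunoproteasome were read beside these values. The summed level of 12 microglia markers was 32.2, 26.2, 12.8 and 70.5 CPM in replicates 1 to 4, highest in replicate 4, where Psmb8 was high, and lowest in replicate 3, where Psmb9 was. Among them Csf1r was at 12.8, 0.579, 1.34 and 26.2 CPM and Tyrobp at 0, 9.58, 0 and 8.10 CPM. Tmem119 had 0 counts in replicates 3 and 4, and Trem2 in replicates 1 to 3. The summed level of 12 endothelial markers was 297, 398, 186 and 137 CPM, lowest in replicate 4. Slc2a1, Flt1 and Slco1a4 led that list with means of 90.8, 43.4 and 42.7 CPM. The part of these cell types in the levels of Psmb8, Psmb9 and Psmb10 was not tested. Of 12 interferon and antigen presentation genes, 8 reached 1 CPM in all 4 libraries, among them the class I light chain gene B2m and the interferon gamma receptor gene Ifngr2, with means of 96.6 and 57.5 CPM. Nlrc5, the class I transactivator, had counts in replicate 4 alone (2.15 CPM). Irf1 was at 0.0473, 0, 0.471 and 2.22 CPM in replicates 1 to 4, highest in replicate 4 too. Other genes of the list were not, B2m being at 175, 102, 57.9 and 51.9 CPM, H2-D1 at 35.8, 40.0, 9.74 and 8.81 CPM and H2-K1 at 4.35, 9.00, 10.3 and 3.46 CPM. These examples were chosen after their values were seen. The whole list summed to 348, 268, 187 and 207 CPM, highest in replicate 1. The peptide transporter gene Tap1, which adjoins Psmb9, was at 0.899, 9.13, 2.28 and 0.0653 CPM.

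The 19S genes were all detected, 17 of 17 at 1 CPM or more in every library. In the ATPase ring Psmc5 had the highest mean per kb of any member, 98.3 ± 28.7 CPM per kb (SD, n = 4). Its levels in replicates 1 to 4 were 187, 120, 93.2 and 148 CPM. Psmc6 was lowest of the ring at 12.9 ± 1.05 CPM per kb, and both places held per kb of the principal transcript (104 and 20.2). Psmc6 and Psmc3 were steady between libraries, Psmc6 at 45.9, 44.2, 40.7 and 49.6 CPM and Psmc3 at 49.7, 41.5, 50.1 and 46.0 CPM. Psmc4 was the uneven ATPase gene, with 48.9 and 65.3 CPM in replicates 3 and 4, against 9.70 and 25.8 CPM in replicates 1 and 2.

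The other base genes encode the scaffolds Psmd1 and Psmd2 and the ubiquitin receptor Psmd4. Psmd1 was at 190 and 167 CPM in replicates 3 and 4, against 322 and 308 CPM in replicates 1 and 2. It had the highest level of the 3 per kb, 34.0 ± 10.9 CPM per kb (SD, n = 4), or 79.3 per kb of the principal transcript. Psmd4 was at 44.7, 39.1, 61.7 and 56.4 CPM in replicates 1 to 4 and lowest per kb of union exon at 17.99 ± 3.70, while per kb of the principal transcript Psmd2 was lowest at 26.3. Psmd2 was at 70.2, 68.9, 78.5 and 94.1 CPM, a narrow range.

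Among the 8 lid genes the range was wider, 9.94-fold per kb. Psmd12, a structural lid gene, was highest at 49.1 ± 14.4 CPM per kb (SD, n = 4). Its levels in replicates 1 to 4 were 84.3, 128, 130 and 178 CPM. Psmd13, also structural, was lowest at 4.94 ± 2.20 CPM per kb, with 10.2, 22.8, 23.5 and 10.3 CPM. Both places held per kb of the principal transcript (68.3 and 8.38). Exons of Psmd13 overlap those of Sirt3 over 10.1% of their length. Psmd14, the deubiquitinase of the lid, was at 178, 53.2, 74.2 and 79.5 CPM, high in replicate 1. Its binding partner Psmd7 was at 134, 83.6, 77.4 and 88.9 CPM, also highest in replicate 1. Psmd8 was at 45.2, 13.6, 58.5 and 25.7 CPM and had the widest spread of the lid genes. Psmd3, Psmd6 and Psmd11 had means of 43.8, 54.6 and 48.1 CPM.

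Psmd5, Psmd9 and Psmd10 help to assemble the 19S base and leave the finished particle. Psmd10, known as gankyrin, was at 2.04 and 5.55 CPM in replicates 3 and 4, against 41.3 and 27.2 CPM in replicates 1 and 2. It was the most variable of the detected members. Psmd9 had the lowest level of all detected members per kb, 1.35 ± 0.49 CPM per kb (SD, n = 4). Its levels in replicates 1 to 4 were 5.44, 10.2, 14.1 and 9.40 CPM. Of its union exons 25.5% overlap those of Gm26745. Psmd5 was at 85.7, 51.6, 52.0 and 46.2 CPM, highest in replicate 1.

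The activators differed among themselves. Psme1 and Psme2 form a joint ring that interferon induces in many cells. Per kb, Psme2 was below Psme1 in 4 of 4 libraries, by a log2 ratio of -2.25 ± 0.55 (SD, n = 4). Psme2 was at 17.4, 12.9, 20.9 and 9.21 CPM in replicates 1 to 4. Psme1 was at 74.8 and 62.4 CPM in replicates 3 and 4, against 123 and 116 CPM in replicates 1 and 2. Of the transcript 50-mers of Psme2 54.9% occur in other transcripts, among them those of its retrogene Psme2b, so its counts are uncertain. Psme3, which forms a nuclear ring, was at 111, 88.1, 100.3 and 113 CPM. Its log2 ratio to Psme1 was -0.23 ± 0.56 per kb and below 0 in 2 of 4 libraries, within the spread (exact sign-flip permutation p = 0.5). Per kb of the principal transcript the ratio was -1.07 ± 0.56 and below 0 in 4 of 4 libraries. Psme4, a large single-chain nuclear activator, was at 65.7, 62.7, 27.1 and 60.7 CPM, low in replicate 3. It stood below Psme3 by a log2 ratio of -2.41 ± 0.55 per kb in 4 of 4 libraries, and by -0.92 with the median length of protein-coding transcripts and -1.0002 with no division by length. The exact sign-flip permutation p was 0.125 for the Psme2 and Psme4 ratios, the smallest possible.

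Medians of the classes were compared within each library as log2 CPM per kb, with 0.5 added. These are descriptions of the members and were given no test. The 3 inducible catalytic genes differed from the 3 constitutive ones by -4.39 ± 1.29 (SD, n = 4), below 0 in 4 of 4 libraries. The size depends on the added value, with -5.45 for 0.1 and -3.78 for 1, and on replicate 4, without which it was -5.03. The assembly chaperones differed from the 19S genes by -1.79 ± 1.06, below 0 in 4 of 4 libraries. The size differed between the library pairs, at -0.66 and -1.20 in replicates 1 and 2 and -3.03 and -2.27 in replicates 3 and 4. The lid genes differed from the ATPase genes by -0.46 ± 0.32, below 0 in 4 of 4. The 19S genes differed from the constitutive 20S genes by -0.23 ± 0.22, below 0 in 3 of 4, a margin about as large as its spread. The activators differed from the 20S genes by -0.37 ± 0.15, below 0 in 4 of 4, and by 0.04 ± 0.49 without the division by length. With the median length of protein-coding transcripts, the activator difference was 0.87 and the lid difference 0.15.

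The detected members varied less between libraries than most genes. The SD of log2 CPM over the 4 libraries (with 0.5 CPM added) had a median of 0.48 over the 39 members, beside 0.67 over the 10632 genes that reached 1 CPM in all 4 libraries, and 31 of the 39 lay below that value. Members were also higher in level than the median detected gene (54.6 against 31.4 CPM), which was not matched for. Psmd10, Psmc4, Psmd8, Psmb2 and Psma5 had the largest SDs, at 1.89, 1.19, 0.92, 0.86 and 0.74. Psmb1, Psmc6 and Psmc3 had the smallest, at 0.08, 0.12 and 0.13, an order that holds for CPM with Rn45s in the totals. Of the 39 members 17 were highest in replicate 1 (43.6%, beside 27.8% of all detected genes), 2 in replicate 2 (5.13%, beside 26.1%), 12 in replicate 3 (30.8%, beside 17.1%) and 8 in replicate 4 (20.5%, beside 29.0%). These counts and shares also hold for CPM with Rn45s in the totals, which took 24.2% of replicate 3. Without it some members move from replicate 1 to replicate 3, among them Psma2 and Psmb7.

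**Figure D3:**
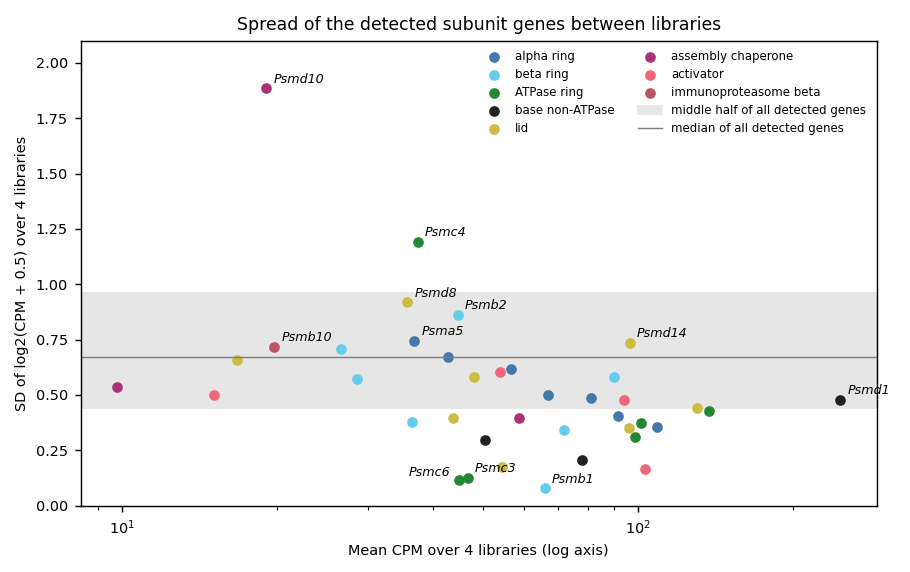
SD of log2(CPM + 0.5) over the 4 libraries against mean CPM (log axis) for the 39 members that reached 1 CPM in all 4, coloured by class. The line is the median of all 10632 detected genes (0.67) and the grey band spans their quartiles (0.44 to 0.96). Most members lie below the line, with Psmd10 and Psmc4 above the band.

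No member passed the test between the library pairs. Replicates 3 and 4 were compared with replicates 1 and 2 over all genes with edgeR's quasi-likelihood test. Of 13905 tested genes 176 were called (1.27%, adjusted p under 0.05), 99 higher (0.712%) and 77 lower (0.554%) in the second pair, and 0 of the 40 tested members were among them. Psma8, Psmb9 and Psmb11 did not pass the filter on low counts. At an unadjusted edgeR p under 0.05 there were 5 members (12.5%), beside 16.8% of all tested genes, and DESeq2 called 2 members, Psmb2 and Psmd10, beside 9.8% of genes. The median log2 change was 0.07 over the members and -0.03 over all tested genes, and the median size of the change was 0.46 and 0.79. The CPM of the pairs did not overlap for 19 of 40 members (47.5%), beside 47.5% of all tested genes, the same share. These CPM have Rn45s in the totals, and which members overlap depends on that scaling.

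The 5 members with the smallest p-values can be given one by one. Psmd10 had a log2 change of -3.19 (SE 0.84, edgeR adjusted p = 0.0793, unadjusted p = 0.00231). Psmb2 had 1.52 (SE 0.52, edgeR adjusted p = 0.159) and Psmc4 1.68 (SE 0.63, edgeR adjusted p = 0.195). Psmd1 had -0.79 (SE 0.33, edgeR adjusted p = 0.243). Psmb8 had 4.59 (SE 1.99, edgeR adjusted p = 0.261), a value set by replicate 4. Of the other members without overlap, Psmb10, Psmb3, Psmb5, Psmd3, Psmd12, Psmd4, Psmb6, Psmd2 and Psmb1 had changes of 1.28 down to 0.15, and Psme1, Psma6, Psme4, Psmc2 and Psmd6 of -0.77 up to -0.22. For Psme4, Psmc2 and Psmd6 the lack of overlap holds only with Rn45s in the totals. In the beta ring 5 of 7 changes were positive and in the alpha ring 2 of 7, none of them called. Without replicate 2, edgeR called Psmd10 (log2 change -3.45, adjusted p = 0.0178) and Psmc4 (log2 change 2.59, adjusted p = 0.03), 2 of 41 tested members beside 662 of 15423 tested genes in the same fit.

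**Figure D4:**
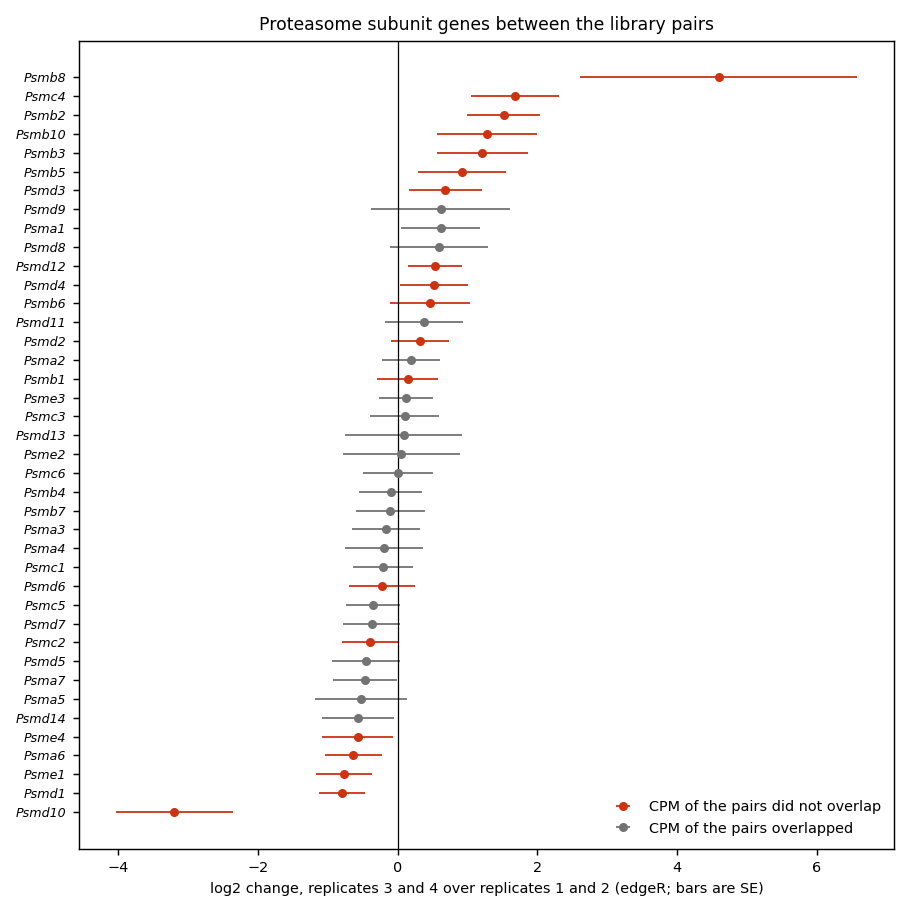
log2 change of the 40 tested members, replicates 3 and 4 over replicates 1 and 2, with bars of 1 SE from edgeR. Red points are the 19 members whose CPM, with Rn45s in the totals, did not overlap between the pairs. Most changes lie within 1 of 0, Psmd10 at -3.19 and Psmb8 at 4.59 being the extremes.

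Partners of the proteasome were read from lists of assembly, inhibitor and delivery genes. Of 15 assembly and partner genes with a row, 13 reached 1 CPM in all 4 libraries, and 0 of 15 were called between the pairs. The 3 highest by mean were AI314180 (also named Ecpas), which tethers core and cap, at 184 ± 45.9 CPM, the redox-linked partner Txnl1 at 127 ± 51.4 and the core maturation factor Pomp at 120 ± 26.4 (SD, n = 4). Adrm1, a ubiquitin receptor of the 19S base outside the symbol rule, was at 35.7 and 33.6 CPM in replicates 3 and 4, against 4.35 and 5.91 CPM in replicates 1 and 2 (log2 change 2.77, SE 0.76, edgeR adjusted p = 0.0873). It was chosen after its values were seen. The core assembly chaperones Psmg1 to Psmg4 varied between libraries. Psmg1 was at 7.43, 6.11, 24.3 and 3.66 CPM in replicates 1 to 4, highest in replicate 3, and Psmg4 at 0.189, 17.0, 4.56 and 4.77 CPM, highest in replicate 2. Psmg2 averaged 8.25 ± 2.46 CPM and Psmg3 2.40 ± 1.80 CPM (SD, n = 4). Delivery and regulation genes were represented by 9 of 10 at 1 CPM or more in every library, with 0 called. The highest were Nfe2l1, which encodes the transcription factor named above, at 258, 222, 241 and 302 CPM in replicates 1 to 4, and the ubiquitin shuttle genes Ubqln2 and Ubqln1 at means of 242 and 158 CPM. Ddi2, the protease that activates the Nfe2l1 product, was at 0.568, 2.12, 9.27 and 3.72 CPM.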

How the data were processed

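RNA was measured in 4 immunopurified libraries of 1 group. The authors deposited 1 table per library of counts per gene, as whole numbers, not normalized. Per the submitters' processing notes, STAR 2.0.0e, HTSeq and the build mm10 were used, and the strand setting was not given in the sources used here. The 5 summary rows of each table were left out of library totals. Reads in no feature made up 24.0% to 30.1% of a table, reads aligned to several places 28.6% to 37.2%, and ambiguous reads 1.25% to 2.07%. Each table had 32531 or 32657 gene rows, 31735 of them shared, and the rows that were not shared held 0.549% to 0.732% of the gene counts. CPM were computed over the gene rows. 1 count is worth 0.0473 to 0.0785 CPM. Intervals and floors (3 counts, per library) cover counting error only.

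Exon lengths, exon overlaps and transcript 50-mers came from the mouse reference annotation. Replicates 3 and 4 were compared with replicates 1 and 2 using edgeR 4.0.16 (TMM, filterByExpr, quasi-likelihood test, Benjamini-Hochberg adjustment over all tested genes) under R 4.3.3, and DESeq2 1.42.0 was an alternative. The edgeR fit was also run on simulated data, and DESeq2 was not. Gene pairs were tested by exact sign-flip permutation over libraries, two-sided. Named genes were the highest and lowest of each class per kb, all genes of the pairs, the 5 most and 3 least variable members, members below 1 CPM in a library, and the 3 highest genes of the partner and marker lists; others were chosen after their values were seen. Some genes that this rule names are not reported here. The members and lists were chosen with earlier results of these data known. Alternatives covered length, pseudocount, scaling, filter, tool and left-out libraries.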

Additional observations from a re-analysis of the deposited data

Results flagged for a closer look

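In 5 of 50 values examined, 1 library stood far from the other 3 (Dixon's test at its 95% critical value), and chance flags about 1 in 20. Psmb8 was at 11.03 CPM in replicate 4, far above the others, and Psmb9 at 2.20 CPM in replicate 3. Psmc2 was at 133 CPM and Psmd5 at 85.7 CPM in replicate 1, both far above the other libraries by CPM with Rn45s in the totals. The flags of Psmc2 and Psmd5 depend on that scaling. Psme4 was at 27.1 CPM in replicate 3, far below the others.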

How the results depend on the processing

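The activator difference from the 20S genes was reversed with the median length of protein-coding transcripts (0.87) and with no division by length (0.0396), and was -0.79 with the principal transcript length, an alternative chosen after seeing the data. The lid difference from the ATPase genes was reversed with the median transcript length (0.15). The ratio of Psme3 to Psme1 was reversed with the median transcript length (0.21) and with no division by length (0.18). Members called between the library pairs numbered 0 in the reported fit, 2 with DESeq2, 1 with no filter and 1 with a filter of 1 CPM in all 4 libraries. All genes called numbered 176, and 1283, 875 and 525 under the same 3 alternatives, and 389 to 699 when 1 replicate was left out. Psmd10 passed with DESeq2 (adjusted p = 0.00116), no filter (edgeR adjusted p = 0.0147) and the 1 CPM filter (edgeR adjusted p = 0.0407), and its adjusted p over all alternatives was 0.00116 to 0.224. The causes were not tested. Of the other comparisons, 149 values of class, pair, count and spread results and 164 of single members kept their direction and side of the threshold. Where a replicate was left out, the lone library of a pair was assumed to vary like the others. No paired analysis was possible because the 4 libraries form 1 group and share no replicate numbers. Psma8, Psmb9 and Psmb11 had too few counts for the test between the library pairs.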

Other observations

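Markers of other cell types had unequal summed levels between libraries. The summed level of 8 oligodendrocyte markers was 1430, 1730, 414 and 2392 CPM in replicates 1 to 4, and that of 8 astrocyte markers 1965, 2255, 599 and 2519 CPM, both lowest in replicate 3. Of these, 6 oligodendrocyte and 7 astrocyte markers reached 1 CPM in all 4 libraries, and edgeR called 0 of either list between the library pairs. The 8 granule cell markers summed to 216 and 409 CPM in replicates 3 and 4, against 717 and 1658 CPM in replicates 1 and 2, and edgeR called 2 of the 8 lower, Cbln3 and Neurod1. Of 10 neuronal markers edgeR called Tubb3 higher and Nefm lower in replicates 3 and 4. Their part in the levels of the proteasome genes was not tested.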
